A study of Mus musculus with 15 samples.

Results

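Ifi204 and Ifi207 are neighbouring genes of the mouse PYHIN (Ifi200) family, here 2 of the 13834 genes measured by RNA sequencing in microglia, the resident macrophages of the brain. They were chosen by name with their levels in all 15 libraries already known, so those levels and their differences are described without a test. Both passed the filter on low values (3 or more libraries at 1 TPM or above), as did 13175 genes in all.

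The series asks about a state that microglia take on with age and whether it is reversible. Total RNA came from microglia sorted by flow cytometry from mouse brain and was amplified before sequencing. The AF-high group (n = 5) held highly autofluorescent cells of untreated 18-month-old mice, and the AF-low group (n = 3) cells of low autofluorescence from untreated mice of that age. The young cells (n = 3) were those of mice aged 3 months. The PLX5622 group (n = 4) came from 18-month-old mice treated with PLX5622, a compound that blocks the CSF1 receptor and is used to deplete microglia. Strain, dose, schedule and sort markers, and how the young and PLX5622 cells were gated for autofluorescence, were not stated in the labels. Libraries of a group are titled biological replicates, but whether each is from a single animal or a pool is not given, so spreads and p-values measure only how these libraries differ. Whether AF-high and AF-low cells came from the same animals is not given either, and all libraries were treated as independent. Levels are in TPM, a transcript abundance corrected for length and brought to nearly the same total per library. TPM keeps no read number, so the depth behind each value is unknown.

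Most PYHIN proteins join an N-terminal pyrin domain, a surface for binding other proteins, to 1 or more C-terminal HIN domains, which bind DNA. Ifi204 (p204) has been described as a sensor of cytosolic DNA that signals through STING, the kinase TBK1 and the transcription factor IRF3 to type I interferon, and many genes of the family are themselves induced by interferon. Aim2 is the family member that nucleates an inflammasome on cytosolic DNA. Ifi207 has been studied less and has been linked to the nucleus and to restriction of retroviruses.

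Both genes lie on chromosome 1 of GRCm38 and are read from the minus strand (GENCODE M21). Ifi207 (ENSMUSG00000073490.11) spans chr1:173723427-173741747 and Ifi204 (ENSMUSG00000073489.6) chr1:173747293-173766943, with 5545 bp between them. They sit inside a cluster of 14 family genes that runs over 680.9 kb from Aim2 to Ifi205. Because near-identical genes can share reads, their annotated transcripts were compared first. The coding sequence is 1857 bases long in Ifi204 and 2934 bases in Ifi207. It aligns without a gap over the first 381 bases of both, of which 93.7% are identical, and again over the last 623 aligned bases, of which 93.6% are identical. Between these blocks lie 851 bases in Ifi204 and 1928 bases in Ifi207. The longest stretch that both carry letter for letter is 108 bases (coding positions 235 to 342 in each).

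The next pair shows how closely the ends of the genes resemble each other even where they differ most. Of all 60-base windows of the second block that lie within 1 exon of each gene, this one holds the most differing bases, 8, which stand in capitals. It is coding sequence in exon 7 of 9 of Ifi204 (chr1:173751985-173752044) and exon 6 of 8 of Ifi207 (chr1:173727766-173727825), minus strand of GRCm38.
Ifi204: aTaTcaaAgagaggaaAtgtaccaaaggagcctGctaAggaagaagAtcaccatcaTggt
Ifi207: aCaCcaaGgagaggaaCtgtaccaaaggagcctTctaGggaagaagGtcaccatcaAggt

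The middle of Ifi207 holds sequence that tells it from its neighbour. A 24-base word occurs in its coding sequence 8 times between positions 1829 and 2188, and 0 times in the coding sequence of Ifi204. No other GENCODE gene carries the word (0 genes). The first 4 copies are shown in capitals, with the bases between them in lower case (exon 5 of 8, chr1:173729214-173729363, minus strand of GRCm38).
Ifi207: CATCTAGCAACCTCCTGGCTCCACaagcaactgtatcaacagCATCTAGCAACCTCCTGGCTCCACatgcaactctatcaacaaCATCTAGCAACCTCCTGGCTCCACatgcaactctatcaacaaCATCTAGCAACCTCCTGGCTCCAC

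Over whole protein-coding transcripts, 10.7% of the 2266 different 31-base words of Ifi204 also occur in Ifi207, and 7.54% of the 3223 words of Ifi207 occur in Ifi204. The word length of 31 was chosen as a description. The quantifier's own word length and the read length were not stated in the labels. Ifi204 shares more with 2 other family genes than with Ifi207. Of its words 29.5% occur in Ifi211 and 13% in Mndal, 8.83% in Ifi205, and 46% in any other gene. For Ifi207 the share found in any other gene is 14.8%, with 4.72% in Ifi203, 4.19% in the pseudogene Ifi203-ps and 3.51% in Ifi211. Outside the family, 1 gene model, Gm18445, shares words with both (3.18% of those of Ifi204 and 3.91% of those of Ifi207). How the deposited values divide reads from shared stretches was not tested, and the separate values of these genes are uncertain to that extent.

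**Figure D1:**
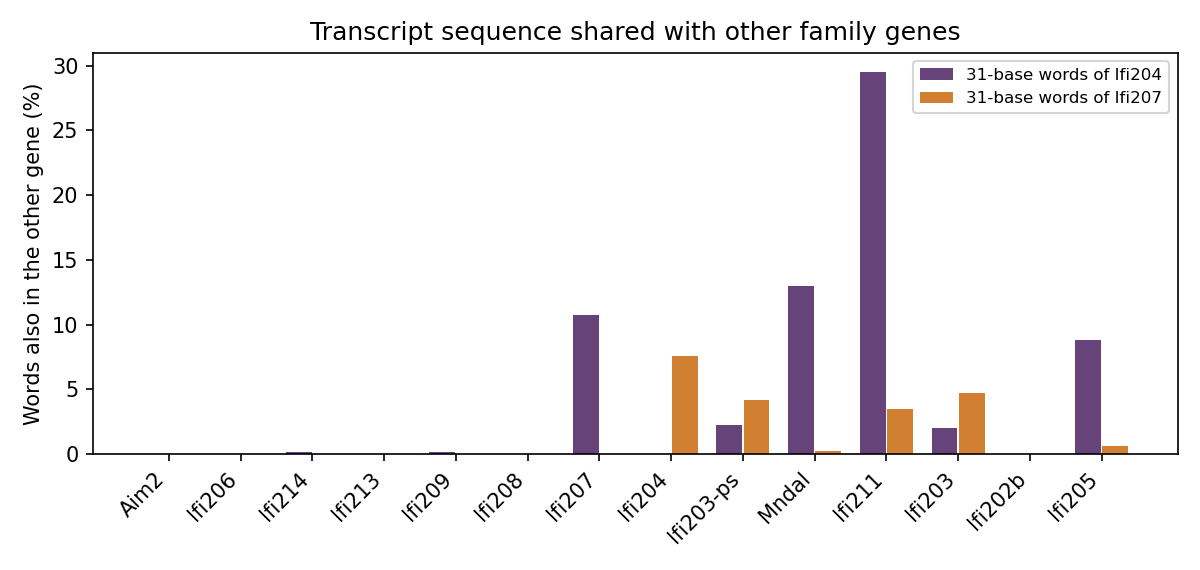
Percent of the 31-base words of Ifi204 (purple) and Ifi207 (orange) that also occur in each family gene, in order along the chromosome; a gene has no bar against itself. The tallest bar is Ifi204 with Ifi211 (29.5%), and the 2 genes share 10.7% and 7.54% with each other.

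The libraries carried the microglial label in their RNA. All 12 microglial markers looked for were measured, with summed levels of 9206 to 12980 TPM in AF-high, 7172 to 10250 in AF-low, 10900 to 12640 in young and 9454 to 10130 in PLX5622 libraries. Of the neutrophil and of the T and NK cell markers 0 were listed. A gene at 0 in any library could not be measured here, so this does not show that such cells were absent. Markers of border-associated macrophages (11 of 11 listed) summed to 330 to 458.3 TPM in AF-high, 473.6 to 613.5 in AF-low, 246.4 to 312.6 in young and 185.9 to 234.2 in PLX5622 libraries. Monocyte markers (8 of 12 listed) summed to 192.9 to 302.4, 327 to 344.5, 177.5 to 282.1 and 190 to 235.7 TPM in the same order, mostly through Nr4a1, an immediate early gene. The monocyte genes Ly6c2 and Ccr2 stayed at or below 2.129 and 7.673 TPM in every library, and Vcan, Itga4 and Ace at or below 1.861, 9.041 and 10.43. Fn1 stood higher, at 29.88 to 48.87 TPM. S100a4 ranged from 0.516 to 33 TPM, with its highest value in AF-low 1. Some libraries stood apart. Choroid plexus markers (4 of 6 listed) summed to 8749 TPM in young 1 and 5769 in young 2 against 33.53 to 370.8 in the other libraries. Mitochondrial transcripts took 5.376% of TPM in AF-high 2 and 7.657% in AF-high 3 against 1.571% to 2.698% elsewhere. Endothelial markers (4 of 7 listed) summed to 134.4 TPM in AF-low 1, with Cdh5 at 73.19, against 31.15 to 73.63 in the other libraries. AF-low 1 also had the lowest microglial sum (7172 TPM). Results without young 1 and young 2, without AF-high 2 and AF-high 3, or without all 4 are also given. They cover the members' differences, ratio, sum and share of the family. They also cover the likeness of profiles and the medians of the family and of the interferon-stimulated genes. AF-low 1 was left out only singly.

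Ifi204 was lowest in young microglia and highest after PLX5622. The young libraries held 32.6, 19.3 and 25.5 TPM (25.78 ± 6.673, SD, n = 3). The 5 AF-high libraries held 37.1, 35.1, 34.6, 35.9 and 37.5 TPM (36.04 ± 1.245, n = 5), a narrow band that lay above every young library. The AF-low libraries, at 48.6, 41.9 and 45 TPM (45.19 ± 3.318, n = 3), lay above every AF-high library in turn. In the PLX5622 group the values were 56.8, 43.2, 61.4 and 61.8 TPM (55.81 ± 8.706, n = 4). All but PLX5622 2 exceeded every library of the other groups, and PLX5622 2 lay inside the AF-low range. From high to low the order of the means was therefore PLX5622, AF-low, AF-high, young, and of the neighbours in that order only PLX5622 and AF-low overlapped. Of all genes 7.78% were separate between AF-high and young and 2.76% between AF-high and AF-low, in either direction. The share with both separations was not counted.

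Ifi207 was also lowest in young microglia, but its highest group was AF-low. The young libraries held 15.3, 14.5 and 16.4 TPM (15.39 ± 0.9257, n = 3), and all 12 libraries of 18-month-old mice lay above them. The share of all genes with this separation was not counted. The AF-high libraries spread from 41.7 and 41.8 through 33.6 to 29 and 26.1 TPM (34.46 ± 7.172, n = 5). The AF-low libraries held 54.3, 34.8 and 56.4 TPM (48.51 ± 11.95, n = 3), with AF-low 2 inside the AF-high range. The PLX5622 libraries held 24.7, 25.9, 28.9 and 36.9 TPM (29.09 ± 5.519, n = 4). Their range overlapped those of AF-high and AF-low. The order of the means was AF-low, AF-high, PLX5622, young, and among neighbours only PLX5622 and young were separate, as were 16% of all genes.

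**Figure D2:**
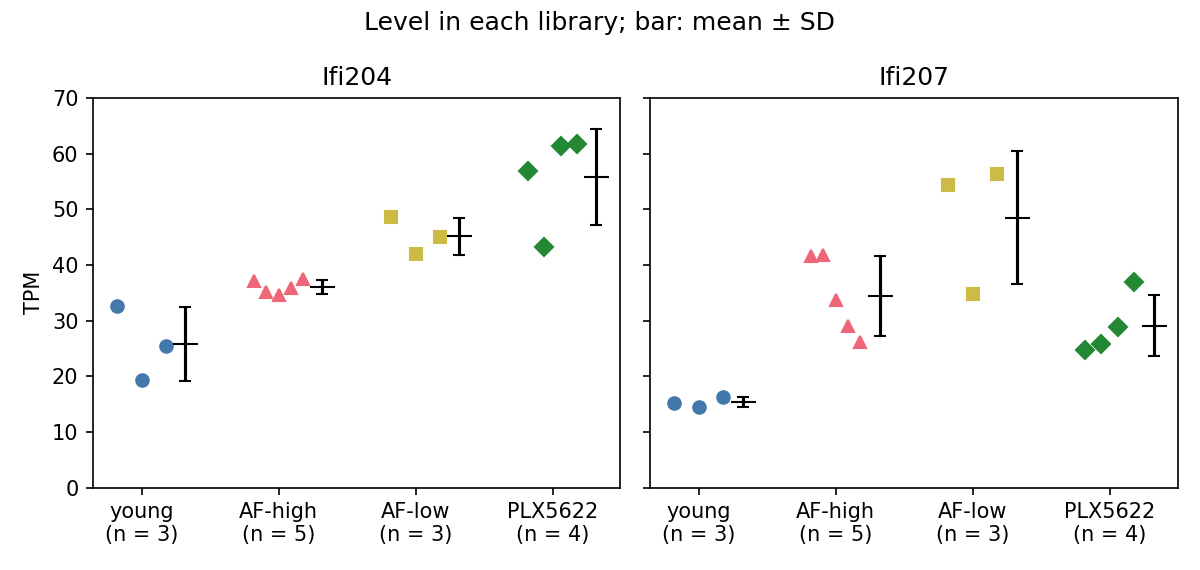
TPM of Ifi204 (left) and Ifi207 (right) in each library by group, with the group mean ± SD beside the points. The young libraries are the lowest group for both genes (19.3 to 32.6 and 14.5 to 16.4 TPM); the PLX5622 libraries are the highest group for Ifi204 (43.2 to 61.8) and overlap AF-high and AF-low for Ifi207 (24.7 to 36.9).

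With age, both genes were higher in untreated cells. The mean of Ifi204 was 1.4 times the young mean in AF-high and 1.75 times in AF-low. On the log2(TPM + 1) scale the differences were 0.50 ± 0.17 (SE) and 0.81 ± 0.18. For Ifi207 the ratios of means were 2.24 and 3.15, and the log2 differences 1.09 ± 0.20 and 1.56 ± 0.23. Neither gene's range overlapped the young range in either comparison. Leaving out 1 library at a time, the value of Ifi204 in AF-high over young ran from 0.31 without young 2 to 0.68 without young 1. Without both young 1 and young 2 the log2 differences were 0.48 and 0.80 for Ifi204 and 1.00 and 1.48 for Ifi207, now against a single young library. Non-overlap was not rare here: 7.78% of all genes were separate between AF-high and young, and 19.3% between AF-low and young. By limma's adjusted p under 0.05, 0% and 0.0455% of the 13175 genes were called in these comparisons (0 and 6 genes; 1446 and 1551 at an unadjusted p under 0.05).

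Between the 2 gates of old cells, both genes had the lower mean in AF-high. Ifi204 stood at 0.798 times its AF-low mean, a log2 difference of -0.32 ± 0.17, with no overlap. Ifi207 stood at 0.71 times its AF-low mean, a log2 difference of -0.47 ± 0.20, with overlap. Over all genes 2.76% did not overlap between these groups and 0% were called (0 genes; 1082 at an unadjusted p under 0.05). Leaving out AF-high 2 and AF-high 3, the libraries with most mitochondrial transcripts, gave -0.29 for Ifi204 and -0.57 for Ifi207. Without AF-low 1 the value of Ifi204 was -0.26. That of Ifi207 ran from -0.69 without AF-low 2 to -0.35 without AF-low 3. The summed border-associated macrophage markers were higher in every AF-low than in every AF-high library, as given above, as were the summed monocyte markers. Taken singly, Mrc1, Cd163, F13a1 and Cbr2 were separate in this way. The other border-associated markers, such as Dab2 and Stab1, overlapped, and so did every monocyte marker, Nr4a1 included. The part of these markers in the levels of Ifi204 and Ifi207 was not tested. In sorted bulk RNA a different mixture of cells and a different level per cell cannot be told apart.

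Against untreated old cells, the PLX5622 group had the higher mean of Ifi204 and the lower mean of Ifi207, the latter with overlapping ranges. Against young cells both genes were higher. Ifi204 had a mean 1.55 times that of AF-high, with a log2 difference of 0.60 ± 0.15 and no overlap. Ifi207 had a mean 0.844 times that of AF-high, with a log2 difference of -0.23 ± 0.19 and overlapping ranges. Without AF-high 2 and AF-high 3 these differences were 0.57 and -0.13. Without PLX5622 4 the value of Ifi207 was -0.35. Against AF-low, Ifi204 was at 1.24 times the mean (log2 difference 0.29 ± 0.17) and Ifi207 at 0.6 times (-0.70 ± 0.21), both with overlap. Against young, Ifi204 was at 2.17 times the mean (1.10 ± 0.17) and Ifi207 at 1.89 times (0.86 ± 0.21), both without overlap. Without young 1 and young 2 the last values were 1.09 and 0.78. The groups were separate for 6.55%, 16.2% and 16% of all genes against AF-high, AF-low and young. The called shares were 0.63% (83 genes, 21 higher and 62 lower), 0.144% (19 genes, all lower) and 0.0911% (12 genes, 8 higher and 4 lower). The median log2 difference of all genes against young was -0.12, so that both genes stood above a background slightly below 0. The sum of the border-associated markers was lower in every PLX5622 library than in any other library; taken singly this held for 3 of the 11 (Mrc1, Dab2 and Stab1). Their part in these values was not tested.

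The balance between the 2 genes restates these differences library by library, from the same values. The ratio of Ifi207 to Ifi204 in TPM was 0.469, 0.754 and 0.643 in young libraries. It was 1.13, 1.19, 0.972, 0.809 and 0.696 in AF-high and 1.12, 0.829 and 1.25 in AF-low libraries. In PLX5622 libraries it was 0.434, 0.599, 0.47 and 0.598. All 4 PLX5622 ratios were therefore below all 8 ratios of untreated old cells and inside or just below the young range. How often the ratio of 2 genes separates these libraries was not counted. The mean log2 ratio was -0.71 ± 0.35 (SD) in young, -0.09 ± 0.32 in AF-high, 0.07 ± 0.31 in AF-low and -0.94 ± 0.24 in PLX5622 libraries. It was -0.64 in young 3 alone and -0.22 ± 0.35 in AF-high without AF-high 2 and AF-high 3.

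**Figure D3:**
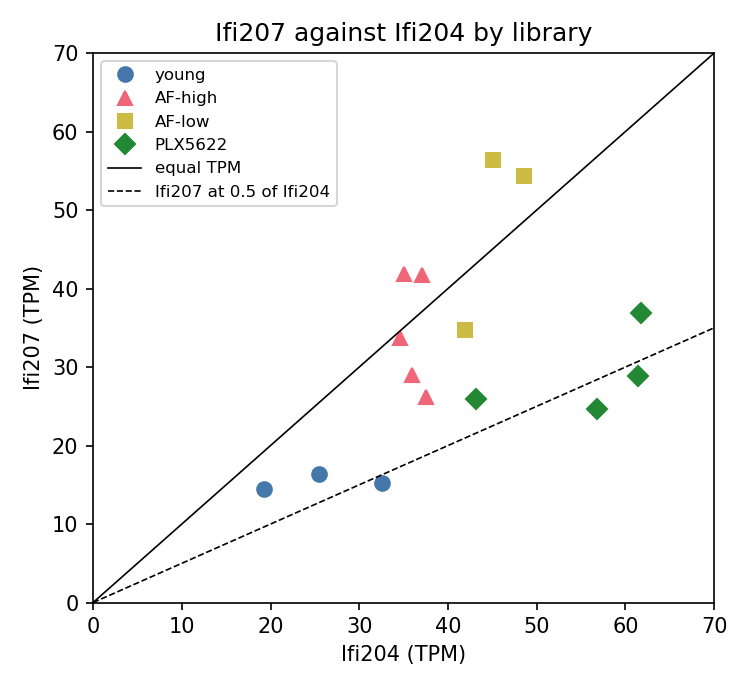
Ifi207 against Ifi204 in TPM, 1 point per library, with lines of equal level (solid) and of Ifi207 at 0.5 of Ifi204 (dashed). The AF-high and AF-low libraries scatter around the solid line (ratios 0.696 to 1.25), and the PLX5622 libraries lie near the dashed line (0.434 to 0.599).

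The TPM of the pair was also summed. TPM is divided by transcript length (2296 bases in Ifi204-201 and 3422 in Ifi207-201), so an exchange of reads between the genes would still move the sum. It was 41.17 ± 7.065 TPM in young, 70.49 ± 6.928 in AF-high, 93.7 ± 14.73 in AF-low and 84.89 ± 12.68 in PLX5622 libraries. Each of the 12 old libraries, at 63.65 TPM or more, exceeded each young library, at 47.88 or less. How often the sum of 2 genes separates in this way was not counted. On the log2 scale the sum differed from young by 0.77 ± 0.16 in AF-high, 1.17 ± 0.18 in AF-low and 1.03 ± 0.17 in PLX5622. PLX5622 differed from AF-high by 0.26 ± 0.15 and from AF-low by -0.14 ± 0.17, with overlapping ranges in both cases. Young 3 alone had a sum of 41.84 TPM, and AF-high without AF-high 2 and AF-high 3 a sum of 69.11 ± 8.375.

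Within the family, Aim2 was by far the most abundant transcript, at 358.1 to 593.3 TPM. Ifi204 and Ifi207 took the next 2 places of the 12 measured family genes in 14 of 15 libraries. The exception was young 2, where Ifi206 (21.85 TPM) stood above both. Leaving Aim2 aside, Ifi204 and Ifi207 together made up 43.5% ± 7.152 of the family's TPM in young, 54.17% ± 5.73 in AF-high, 57.66% ± 1.845 in AF-low and 54.52% ± 4.208 in PLX5622 libraries. The young range, 37.76% to 51.51%, overlapped the AF-high and PLX5622 ranges and not the AF-low range. Young 3 alone had 41.22%, and AF-high without AF-high 2 and AF-high 3 had 54.04% ± 6.659.

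Calls were few among all genes (0% to 0.63% in the 6 comparisons). None of the other 10 measured family genes passed limma's test over all genes in any of the 6 comparisons (0 calls; Ifi202b and Ifi203-ps were not analysed here). At an unadjusted p under 0.05 there were 1, 1 and 1 of them in AF-high over AF-low, AF-high over young and AF-low over young, and 2, 2 and 3 in PLX5622 over AF-high, AF-low and young. Of all 13175 genes 8.21%, 11%, 11.8%, 15.3%, 14.3% and 5.23% had such a p in the same order, so that these shares are the background for the counts of every list. Fits of the 2 groups alone called Ifi209 higher in PLX5622 over young, and weights by group called Ifi209 and Ifi214. Ifi205, a gene at the far end of the cluster, had a log2 difference of 1.06 ± 0.32 in AF-low over young (limma adjusted p = 0.211). Its levels were 7.537, 2.819 and 4.464 TPM in AF-low and 1.143 to 2.234 TPM in young. Ifi209, another pyrin-domain family gene, stood at 5.861 to 8.594 TPM in PLX5622 and 2.157 to 3.398 TPM in young libraries, without overlap (1.19 ± 0.34, limma adjusted p = 0.361). Aim2 differed from young by 0.07 ± 0.17 in AF-high, 0.25 ± 0.19 in AF-low and 0.34 ± 0.18 in PLX5622. Of the 10 genes, 7 had a positive difference in AF-high over young (median 0.08), 9 in AF-low over young (median 0.44) and 8 in PLX5622 over young (median 0.44). The medians of all genes were -0.08, -0.04 and -0.12. In AF-high over AF-low 1 of 10 was positive (median -0.28, all genes -0.04), in PLX5622 over AF-high 9 of 10 (median 0.34, all genes -0.02) and in PLX5622 over AF-low 5 of 10 (median -0.02, all genes -0.05). Against young 3 alone the counts were 4 (median -0.09) in AF-high, 7 (0.28) in AF-low and 8 (0.38) in PLX5622, so the AF-high median changed sign. Without AF-high 2 and AF-high 3, 3 of 10 were positive in AF-high over AF-low (-0.15), 6 in AF-high over young (0.13) and 7 in PLX5622 over AF-high (0.12).

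Of the 2 genes that share most sequence with Ifi204, Mndal stood at 2.721 to 8.417 TPM in PLX5622 and 12.81 to 16.83 TPM in AF-low libraries, without overlap (log2 difference -1.23 ± 0.37, limma adjusted p = 0.156), while Ifi204 was at its highest in PLX5622. Ifi211 had a difference of the same sign as Ifi204 in every comparison but PLX5622 over AF-low (-0.24 ± 0.50), and ranged from 0.3636 to 6.32 TPM in AF-high libraries alone, with SEs of 0.44 to 0.53 in the 6 comparisons. Both were lower in TPM than Ifi204 in every library. Whether reads moved between them and Ifi204 was not tested.

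**Figure D4:**
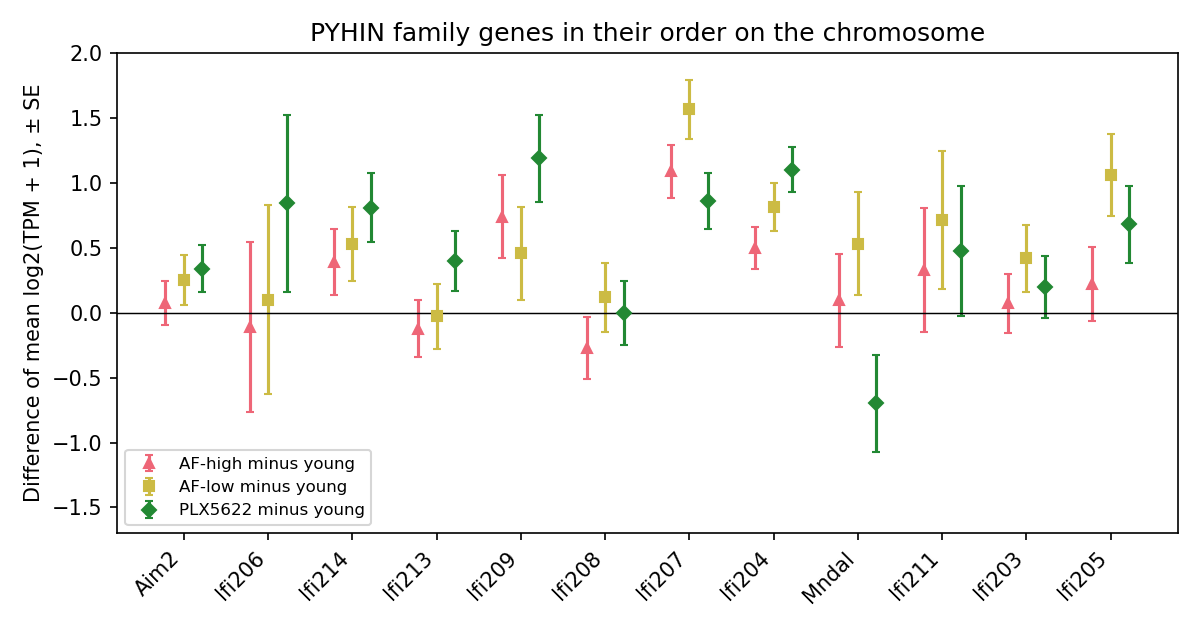
Difference of the mean log2(TPM + 1) from young microglia, ± SE, for the 12 measured family genes in chromosome order, in AF-high (triangles), AF-low (squares) and PLX5622 (diamonds). Among its own 3 values Ifi207 is highest in AF-low (1.56) and Ifi204 in PLX5622 (1.10), where Ifi209 stands at 1.19; Mndal is the gene with a negative value in PLX5622 (-0.70) and positive ones in AF-high and AF-low.

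The promoters of the family were searched for one short form of the interferon-stimulated response element, GAAANNGAAA, on both strands of RefSeq's window (GRCm38.p6) from 250 bases before to 50 bases after each start. The motif was found in 3.44% of 32851 windows of all genes. RefSeq's windows cover 12 family genes, Ifi202b among them but not Ifi204, whose promoter was therefore not searched. Of the 12 genes 9 had a match in at least 1 window, and Aim2, Ifi209 and Ifi202b had none. In Ifi207 the match begins 41 bases before the start, in the window chr1:173741760-173742059 on the minus strand. The same 10 bases occur in 7 family genes (Ifi203, Ifi206, Ifi207, Ifi208, Ifi213, Ifi214 and Mndal) and in 0.0487% of all windows (16). Ifi211 and Ifi205 carry another form of the motif. The matches of Ifi207 and of the 2 genes that share most sequence with Ifi204 are shown with 15 bases on either side and the motif in capitals. They begin 41, 36 and 37 bases before the start (Mndal in chr1:173880138-173880437 and Ifi211 in chr1:173912997-173913296, both minus strand).
Ifi207: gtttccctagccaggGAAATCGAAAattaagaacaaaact
Mndal: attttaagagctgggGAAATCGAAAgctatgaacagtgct
Ifi211: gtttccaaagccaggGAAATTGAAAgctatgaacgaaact

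Genes around the sensors in the pathway mostly did not pass the test. Among the other DNA sensors (11 of 12 measured, such as Tlr9, the endosomal receptor for DNA), 0 were called in any comparison by limma, and at most 1 had an unadjusted p under 0.05. Lrrfip1, a nucleic acid-binding protein of the list, was scattered, at 116.2 to 450.3 TPM in AF-high and 128.6 to 509.3 TPM in AF-low libraries. Of the STING signalling list (11 of 12 measured, Tmem173 not analysed here) 0 were called as well, with 0 to 2 at an unadjusted p under 0.05. Tbk1, the kinase downstream of STING, had log2 differences of 0.19 ± 0.13 in AF-low over young and -0.04 ± 0.12 in PLX5622 over AF-low, with overlap. Irf3, its substrate, had 0.06 ± 0.20 in AF-low over young and -0.30 ± 0.19 in PLX5622 over AF-low, the latter without overlap (limma adjusted p = 0.494). Ticam1, an adaptor of Toll-like receptor signalling placed in this list, was at 32.99 to 38.64 TPM in PLX5622 and 48.15 to 85.38 TPM in AF-high libraries, without overlap (-0.85 ± 0.19, limma adjusted p = 0.0541). It was called lower with a filter at 5 TPM (limma adjusted p = 0.0465) and with weights by group (0.0257). Enzymes that limit DNA sensing, such as the nuclease Trex1 (11 of 11 measured), and inflammasome genes (9 of 10 measured) gave 0 calls each, with 0 to 2 at an unadjusted p under 0.05. Pld4, an exonuclease that trims the ligands of Tlr9, was at 169.7 to 225.7 TPM in AF-low and 250.5 to 272.8 TPM in young libraries, without overlap (-0.42 ± 0.13, limma adjusted p = 0.223). Il1b, the cytokine that inflammasomes process, was at 296.6 to 1275 TPM in AF-high, 322.1 to 901.6 in AF-low, 211.2 to 252.6 in young and 229.5 to 285.2 in PLX5622 libraries. Its difference of AF-high over young was 1.29 ± 0.43 (limma adjusted p = 0.292).

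In the interferon arm 3 genes were called, all in comparisons with PLX5622. Of all genes 0.63% were called in PLX5622 over AF-high and 0.0911% in PLX5622 over young. Stat2, a subunit of the transcription factor activated by type I interferon, was at 649.3, 837.1, 624 and 827.5 TPM in PLX5622 libraries and at 970, 1777, 1444, 1197 and 1189 TPM in AF-high libraries. It fell by 0.82 on the log2 scale (SE 0.17, limma adjusted p = 0.0411) and was the 1 gene called of 16 tested interferon receptors and transcription factors. Of 55 measured interferon-stimulated genes, Samd9l, an interferon-induced antiviral factor, rose in PLX5622 over AF-high (1.36 ± 0.24, limma adjusted p = 0.0266) and over young (1.60 ± 0.27, adjusted p = 0.0361). Its PLX5622 levels were 8.817, 9.437, 11.04 and 9.987 TPM against 2.856 to 3.771 TPM in AF-high and 1.348 to 3.509 TPM in young libraries. Ly6e, an interferon-inducible surface protein, fell in PLX5622 against AF-high (-0.63 ± 0.14, limma adjusted p = 0.0495). These calls lie close to the threshold. With 1 of the 15 libraries left out, Stat2 was called in 4 of 15 fits, Ly6e in 4, and Samd9l in 11 against AF-high and 5 against young, with the same sign throughout. Without young 1 and young 2 the Samd9l call against young was lost (limma adjusted p = 0.462), and without AF-high 2 and AF-high 3 the Stat2 call was (0.0698). The median log2 difference of the interferon-stimulated genes was 0.10 in AF-high over young, 0.18 in AF-low over young and 0.28 in PLX5622 over young. For all genes it was -0.08, -0.04 and -0.12. Of the 55 genes 33, 35 and 43 were positive. Wholly above the young libraries stood 3, 9 and 17 of them, and wholly below 1, 3 and 2. Of all 13175 genes 347, 1087 and 432 stood wholly above, and 678, 1461 and 1674 wholly below. The list median was -0.05, 0.13 and 0.13 in AF-high over AF-low, PLX5622 over AF-high and PLX5622 over AF-low (all genes -0.04, -0.02 and -0.05). Without AF-high 2 and AF-high 3 the median in AF-high over AF-low turned to 0.10, that in AF-high over young was 0.16 and that in PLX5622 over AF-high 0.07. Against young 3 alone the medians were 0.10, 0.20 and 0.27. Weights by group called 5 interferon-stimulated genes higher in PLX5622 over young in place of 1 (Samd9l, Oas1a, Oas1g, Oasl2 and Lgals3bp), and Ifnar1, a subunit of the type I interferon receptor, lower in PLX5622 over AF-high.

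The genes whose profile over the 15 libraries was most like each sensor were taken by Pearson's r of log2(TPM + 1) among 9139 named genes with a mean of at least 5 TPM. For Ifi204 they were Cxcl13, a chemokine for B cells (r = 0.881), the lipoprotein lipase Lpl (0.851), Samd9l (0.826), the heparan sulphate proteoglycan gene Sdc3 (0.816) and the inhibitory receptor gene Cd72 (0.789). Cxcl13 went from 0.5156 ± 0.5567 TPM in young to 3.724 ± 2.704 in AF-high, 12.33 ± 3.01 in AF-low and 21.12 ± 5.345 in PLX5622 libraries, the same order of groups as Ifi204. For Ifi207 they were the inhibitory receptor gene Lilrb4a (0.883), the granule proteoglycan gene Srgn (0.876), the small GTPase gene Rab7b (0.853), the chemokine gene Cxcl16 (0.837) and the class I-like H2-Q7 (0.836). Lilrb4a was at 103.2 ± 13.65 TPM in young, 179.2 ± 24.06 in AF-high, 255.6 ± 68.93 in AF-low and 183.2 ± 18.49 in PLX5622 libraries. The lists had no gene in common. Ifi204 and Ifi207 had r = 0.564 with each other, which put Ifi207 at place 71 for Ifi204 and Ifi204 at place 354 for Ifi207. Much of this likeness lies between the groups: taken as deviations from group means, r fell between 0.179 and 0.654 for the genes near Ifi204, between 0.37 and 0.69 for those near Ifi207, and was 0.274 for the pair. Without young 1, young 2, AF-high 2 and AF-high 3, r was 0.669 to 0.925 for the genes near Ifi204, 0.755 to 0.898 for those near Ifi207 and 0.397 for the pair (11 libraries). These values are a description of libraries that share their groups.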

How the data were processed

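RNA of sorted mouse microglia was measured in 15 libraries, grouped by their labels. The authors deposited TPM, 1 line per gene symbol. The submitters' processing notes name FastQC 0.11.8, Salmon 1.0.0, DESeq2 and GRCm38 (mm10). The transcript annotation, the filter behind the deposited table, the read length and any use of strand were not stated in the labels. The table lists 13834 genes and holds 0 values of 0, so a gene at 0 in any library could not be measured. Library totals were 956489 to 963145 TPM, and 0 pairs of libraries were identical.

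Values were taken as log2(TPM + 1), a pseudocount of 1, for the 13175 genes that reached 1 TPM in 3 or more libraries. This scale understates changes of low genes. All 15 libraries entered 1 fit with limma 3.58.1 in R 4.3.3 (group means, trended eBayes, 11 residual degrees of freedom), which also gave the SEs. Tests were two-sided, with Benjamini-Hochberg adjustment over all genes in each of 6 comparisons and a threshold of 0.05. The fit was checked on simulated data. Ifi204 and Ifi207 were given in every library and not tested. The members and the gene lists were chosen with earlier results of these data known. Named by rule are the members, the other family genes, list genes past the test (for lists with none, the 2 smallest p-values in AF-low over young and in PLX5622 over AF-low) and the 5 genes most like each member. Cell type markers, and Tlr9, Trex1 and Tmem173 as examples of lists, were named outside that rule. Groups are called overlapping where their ranges meet. Sequences came from GENCODE M21 transcripts and RefSeq promoters. Figures were drawn with matplotlib 3.10.9 in Python 3.11.15. Alternatives changed the pseudocount, filter, scaling, libraries or model, 1 at a time.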

Additional observations from a re-analysis of the deposited data

Results flagged for a closer look

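Sets of 4 to 10 values from 1 group, of a gene or of a sum or ratio of genes, were looked at. Of 62 such sets, 2 held a library far from the others by Dixon's criterion. Chance alone flags about 1 in 20 independent sets, and sums and ratios of the same genes are not independent. Both flagged values were in AF-high 2. Ifi213, a family gene, stood at 16.12 TPM there and at 9.161 to 10.77 TPM in the other 4 AF-high libraries. Rad50, a DNA repair protein counted among the DNA sensors, stood at 18.33 TPM there and at 27.34 to 30.94 TPM in the others. AF-high 2 is 1 of the 2 libraries with a high share of mitochondrial transcripts (5.376%). Ifi204 and Ifi207 had no such library in the AF-high or PLX5622 groups.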

How the results depend on the processing

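The differences of Ifi204 and Ifi207 kept their direction, and moved by less than the residual SD, under every alternative run except their sum. The summed TPM turned the sign of PLX5622 over AF-low for Ifi204 and of PLX5622 over AF-high for Ifi207. It gave log2 differences of 0.77 (AF-high over young), 1.17 (AF-low over young), 0.26 (PLX5622 over AF-high) and -0.14 (PLX5622 over AF-low). Counts of called genes moved far more. Quantile normalization gave 1 (AF-high over young), 11 (AF-low over young), 4 (PLX5622 over AF-low) and 22 (PLX5622 over young), and split PLX5622 over AF-high into 35 higher and 36 lower in place of 21 and 62. Median-ratio scaling gave 6, 12 and 6 in the first 3 of these. Fits of the 2 groups alone gave 0 for AF-low over young, 7 for PLX5622 over AF-high, 0 for PLX5622 over AF-low and 59 for PLX5622 over young. Weights by group gave 13 for AF-high over young, 180 for PLX5622 over AF-high and 241 for PLX5622 over young, with 2 other family genes called higher in the last. Same-numbered libraries did not deviate together (r of -0.0812 to 0.141), so the numbers were not taken as pairs. Pairs of AF-high and AF-low libraries under different numbers were not looked for. With a replicate block the counts were 0 (AF-low over young), 0 (PLX5622 over AF-high), 3 (PLX5622 over AF-low) and 3 (PLX5622 over young), and no list gene was called. Leaving out 1 library at a time gave 0 to 1 calls (AF-high over AF-low), 0 to 60 (AF-high over young, most without young 3), 0 to 182 (AF-low over young, most without AF-low 2), 1 to 205 (PLX5622 over AF-high, fewest without PLX5622 2), 2 to 398 (PLX5622 over AF-low, most without AF-low 2) and 1 to 53 (PLX5622 over young, most without young 3). Settings that leave out a pair of libraries, or both pairs for the likeness of profiles, were added after seeing the data. Without young 1 and young 2 there were 0 calls in AF-low over young and 0 in PLX5622 over young, where Samd9l was then lost. Without AF-high 2 and AF-high 3 there was 1 call in AF-high over AF-low and 129 in PLX5622 over AF-high. The causes of these shifts were not tested. Depth is unknown, so low family genes carry a counting error that could not be given.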
